A study of Rattus norvegicus with 8 samples.

Results

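Cytosolic ribosomal protein genes were followed across 4 groups of C6 rat glioma cells: all probe sets with a single gene symbol that starts with Rpl or Rps and a digit, Rps6k kinases left out, together with Rplp0 and Rpsa. The rule gave 63 of the 8799 probe sets, for 43 of the 4737 genes with a probe set of their own: 42 probe sets for 29 genes of the large subunit and 21 probe sets for 14 genes of the small subunit. Of these 21, 3 probe sets are of pseudogenes, Rps2-ps1 and Rps4x-ps9, whose symbols fit the rule. Rps4x-ps9 is bright, at a mean signal of 975, and stays in the counts and medians of the members. Rplp1 and Rplp2, which the rule also names, and the paralog Rpl22l1 had no probe set with a single symbol. Another 40 probe sets carried several symbols, among them a ribosomal protein or pseudogene symbol, and were kept apart as a second set. Their other symbols did not have to fit the rule.

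The labels name migration as the topic, and 8 arrays of short oligonucleotide probes were used. C6 is an established rat glioma line with glial features. The groups, of 2 arrays each, were C6slow and C6fast, slow and fast cells of the line, and C6SPGFPslow and C6SPGFPfast, the same kinds of cells under the name C6SPGFP. All groups are labelled as the C6 line with no further treatment, age or genotype; what C6SPGFP stands for, how slow and fast cells were obtained, and whether C6SPGFP is a single clone, the labels do not say. Nor do they say that the 2 arrays of a group came from separate cultures. The p-values then reflect the spread among these arrays alone, which may be technical.

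Ribosomal proteins build the large and the small subunit of the cytosolic ribosome around the ribosomal RNAs, nearly all at a single copy per ribosome. Their mRNAs are among the most abundant of growing cells, and most begin with a C followed by a run of pyrimidines, the 5' terminal oligopyrimidine tract, through which the mTOR pathway controls their translation as a group. Array signal reads mRNA abundance and does not show that translational control. Several of the proteins have work outside the ribosome, and many of their genes have processed pseudogenes and near-identical copies in the genome, whose RNA the probes of an array may not tell apart.

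The annotated starts of the genes whose signals differed between groups, and of Rplp0 and Rps6 as genes often used as references, are shown because the tract at the start is the sequence feature by which the family is known. Each line gives 15 bases before the annotated start and 15 from it, 5' to 3' on the gene's strand, from RefSeq, build GRCr8. Capitals mark a C followed by at least 4 C or T directly at the start, with the run's full length.
Rpl35, chr3:43165907-43165936, minus strand: cgccccttcctctttCTCTCgaaccgggcg
Rps15, chr7:10068101-10068130, minus strand: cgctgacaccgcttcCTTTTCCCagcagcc
Rplp0, chr12:46718376-46718405, minus strand: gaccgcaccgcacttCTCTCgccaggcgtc
Rpsa, chr8:128728864-128728893, plus strand: cctttccgcgctaccctggaacgggtccgt
Rps10, chr20:5700730-5700759, minus strand: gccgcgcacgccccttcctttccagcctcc
Rpl13a, chr1:104748899-104748928, minus strand: cctcttcctttcctaggcggctgccgaaga
Rpl36, chr9:1533765-1533794, plus strand: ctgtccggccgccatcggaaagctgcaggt
Rps27l, chr8:76443643-76443672, plus strand: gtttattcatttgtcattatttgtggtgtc
Rps6, chr5:106420526-106420555, minus strand: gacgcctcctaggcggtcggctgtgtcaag

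Of the 43 genes, 36 matched an entry of the promoter table, and 11 of these (30.6%) had such a run exactly at the annotated start, against 463 of 18999 protein-coding promoters (2.44%). The 11 genes were Rpl14, Rpl17, Rpl19, Rpl22, Rpl31, Rpl35, Rpl35a, Rpl39, Rplp0, Rps15 and Rps3a. The search asked for C as the first base, so a start with pyrimidines that opens on another base, as printed for Rps10, was not counted, and the share is that of these letters at this position only. In the 300-base windows, 250 before and 50 after the start, GATGGCGG stood on either strand in 6 of the 36 genes (16.7%) and in 2.77% of all promoters. CCGGAAG stood in 9 (25%) and in 11.2% of all, and TATAAA in 4 (11.1%) and in 13.1% of all.

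Signals were quantile normalised, so that all arrays had the same distribution, and 62 of the 63 probe sets had a mean normalised signal of at least 8 and were tested; the one left out was L81138exon_i_at of the pseudogene Rps2-ps1, at a mean of 2.77. The comparisons were made with limma on log2(signal + 8), with Benjamini-Hochberg adjustment over all 6684 tested probe sets: fast minus slow cells in each set, the difference of these changes, and C6SPGFP minus C6 cells of the same speed. A probe set is called where the adjusted p was below 0.05, and folds are of signal plus 8. Members were bright: 20 of them stood among the 100 probe sets with the highest mean signal, and 49 among the highest 500. Signals of different probe sets depend on their probes and are not compared here as RNA levels.

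The deposited signals of 7 arrays had a trimmed mean between 100.1 and 105.8, and C6SPGFPfast replicate 1 had 500.5, which normalisation brought to the common 150.9. Over all tested probe sets the C6fast arrays stood apart, with correlations of 0.8995 to 0.9126 with the C6SPGFP arrays against 0.9693 to 0.9778 between replicates. Of 6 markers of C6 glial identity 5 were measured, with Gfap not among them, and their summed signal was at least 2940 on every array. Vim made up most of that lowest sum, with 2590 on C6fast replicate 1. The other 4, S100b, Nes, Cnp and Sox10, were called lower in C6fast than in C6slow cells. Sox10 fell from 240 and 367 to 2.23 and 0.9. Neuronal markers (5 of 8 measured) summed to 156 to 292, microglial and blood markers (6 of 8) to 80.8 to 105, and endothelial and mural markers (6 of 8) to 293 to 368, and limma called no tested marker of these 3 lists in any comparison, with at most 3 of a list at an unadjusted p below 0.05. In RNA of a whole culture, fewer cells of a type and less RNA per cell cannot be told apart.

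Between fast and slow cells no ribosomal protein probe set passed the test. In C6 cells 0 of 62 were called, against 6.66% of all tested probe sets, and 2 members had an unadjusted p below 0.05. In C6SPGFP cells 0 of 62 were called, against 1.39% of all, and 6 had an unadjusted p below 0.05. The difference of the 2 changes was called for 0 of 62, against 3.82% of all, and 9 had an unadjusted p below 0.05. Of all 6684 tested probe sets, 1296, 648 and 1030 had such an unadjusted p in these 3 comparisons, in the same order. The counts of called members were also 0 under linear scaling and under cyclic loess. The median change was -0.005 in C6 and 0.005 in C6SPGFP on the log2 scale, close to the medians over all tested probe sets, 0.013 and -0.02.

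The members' changes with speed ran from -0.36 to 0.55 in C6, inside the 5th to 95th percentile of all tested probe sets there, -0.89 to 0.82. In C6SPGFP they ran from -0.37 to 1.01, with those percentiles at -0.56 and 0.63. The 95% interval of the change lay inside a 2-fold difference for 52 members (83.9%) in C6 and 57 (91.9%) in C6SPGFP, compared with 64.1% and 72.4% of all tested probe sets. For the 51 members with a mean signal of at least 500, all 51 intervals lay inside 2-fold in both sets. For the 11 dimmer members the data bound the change much less: 1 interval lay inside 2-fold in C6 and 6 in C6SPGFP. Replicates of a group differed by a median of 0.109 to 0.162 (log2) over members and by 0.186 to 0.257 over all tested probe sets.

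**Figure D1:**
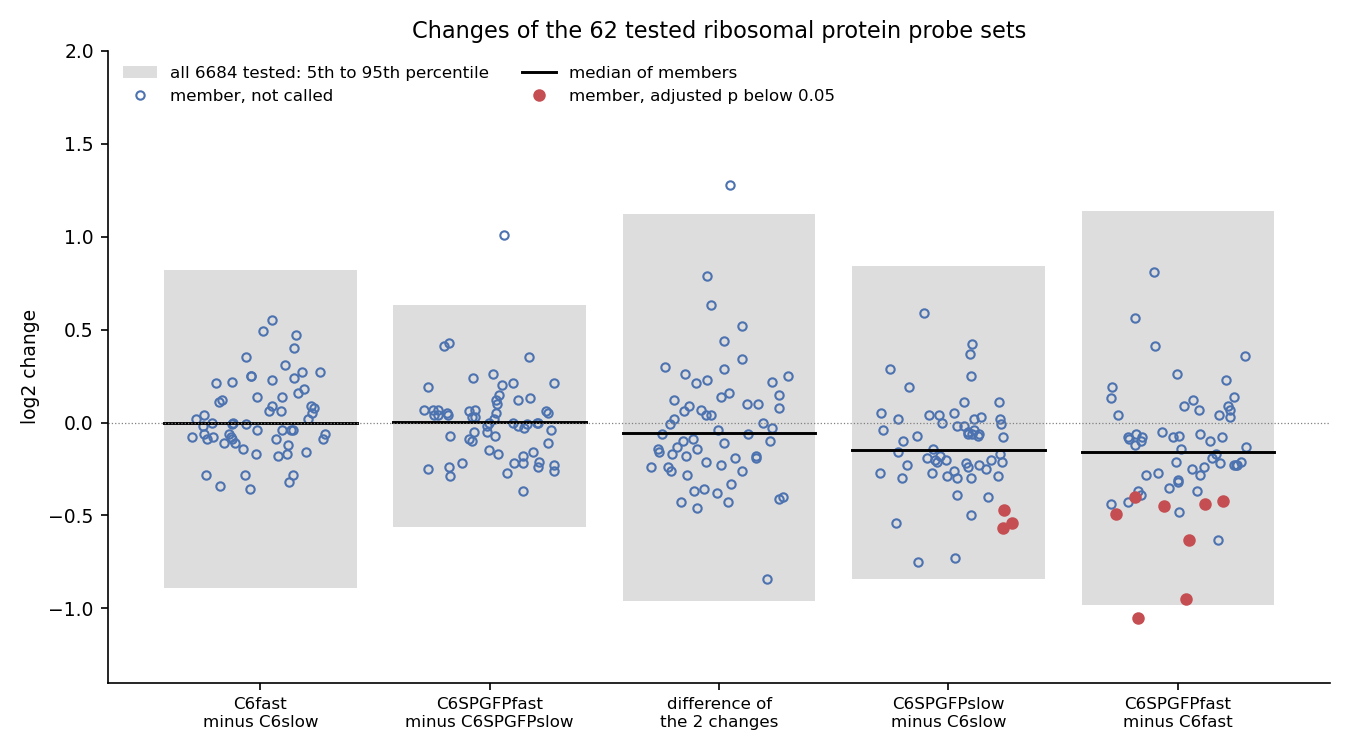
Log2 change of each of the 62 tested ribosomal protein probe sets (circles, filled where the adjusted p was below 0.05) in the 5 comparisons, with the median of members as a line and the 5th to 95th percentile of all 6684 tested probe sets as a grey band. Filled circles appear only between the sets, 3 in slow cells and 8 in fast cells, all below 0.

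The 3 highest and 3 lowest changes with speed in each set, none called, came from dim and from bright probe sets. Rpl30, a large-subunit protein, had the highest change in C6, 0.55 (SE 0.26, adjusted p = 0.298), from signals of 92.6 and 58.8 in C6slow and 93 and 134 in C6fast. The C6SPGFP arrays of Rpl30 gave 83.4 and 77.5 in slow and 93.8 and 82.4 in fast cells, so the highest array was C6fast replicate 2. Rpl19l4, an Rpl19-like gene, had the highest change in C6SPGFP, 1.01 (SE 0.36, adjusted p = 0.354), from 110 and 168 in slow to 236 and 334 in fast cells. Its C6 arrays overlapped across that range, at 305 and 174 in C6slow and 143 and 249 in C6fast, and the replicates of C6slow lay almost as far apart as the groups. Rpl19 itself, on a bright probe set, had 4287 and 3914 in C6slow, 4099 and 3677 in C6fast, 3914 and 4074 in C6SPGFPslow, and 3534 and 3117 in C6SPGFPfast. Its change in C6SPGFP was -0.27 (SE 0.1, adjusted p = 0.396), opposite in sign to that of Rpl19l4.

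Rpl24, a large-subunit protein, gave 2297 and 2228 in C6slow, 2257 and 2027 in C6fast, 2090 and 2302 in C6SPGFPslow, and 1810 and 1784 in C6SPGFPfast on rc_AA817997_at. The C6SPGFPfast arrays were its lowest, with a change of -0.29 from slow cells (SE 0.1, adjusted p = 0.343), and its second probe set changed by -0.21. Rpl35a, also of the large subunit, gave 1499 and 1235 in C6slow, 1325 and 893 in C6fast, 921 and 949 in C6SPGFPslow, and 882 and 867 in C6SPGFPfast. The C6 groups overlapped (-0.32, SE 0.19, adjusted p = 0.41), and both C6slow arrays lay above all 4 C6SPGFP arrays (-0.54 in slow cells, adjusted p = 0.138).

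Rpl17 and Rpl21, also of the large subunit, were dim on the probe sets that the naming rule picked. Rpl17 gave 51.9 and 91.8 in C6slow, 49.4 and 139 in C6fast, 66.7 and 106 in C6SPGFPslow, and 99.7 and 130 in C6SPGFPfast. Rpl21 on rc_AA849648_at gave 96.3 and 149 in C6slow, 103 and 281 in C6fast, 141 and 241 in C6SPGFPslow, and 153 and 269 in C6SPGFPfast. In both genes replicate 2 was the higher array of every group, and the changes with speed were 0.25 and 0.41 for Rpl17 and 0.49 and 0.13 for Rpl21, none called. The 4 probe sets of Rpl21 had mean signals from 77.5 to 1376, and in C6 their changes ran from -0.28 to 0.49.

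Genes with known pairs or roles were followed whether they changed or not. Rplp0, which anchors the stalk that recruits translation factors, varied little: 3958 and 3857 in C6slow, 4248 and 4374 in C6fast, 4099 and 3958 in C6SPGFPslow, and 4131 and 4074 in C6SPGFPfast. Its changes were 0.14 with speed in C6 (95% interval -0.03 to 0.31) and 0.03 in C6SPGFP (-0.14 to 0.19). Rps6, the small-subunit protein that S6 kinases phosphorylate, gave 2113 and 2133, 1960 and 2039, 2055 and 2283, and 1991 and 2216 in the same order of groups on M29358_g_at. On M29358_at it gave 1674 and 1405, 1644 and 1417, 1348 and 1582, and 1141 and 1457, and on both probe sets no change exceeded 0.24 in size in the 4 comparisons of groups.

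Rpl22 and Rpl3 belong to pairs of paralogs. Rpl22 gave 3376 and 3036 in C6slow, 3287 and 3515 in C6fast, 3348 and 2964 in C6SPGFPslow, and 3175 and 3247 in C6SPGFPfast, and no change exceeded 0.09 in size. Rpl3 on rc_AA892367_i_at, the member with the highest mean signal, gave 4196 and 3602, 4287 and 3914, 4768 and 4718, and 4222 and 4842. It was the member highest above 0 between the slow groups among those of mean signal 500 or more, 0.29 (SE 0.11, adjusted p = 0.162), while its second probe set, with 2346 and 2336, 2046 and 2283, 2288 and 2209, and 2143 and 2292, changed by -0.06. Rpl3l, the paralog known from striated muscle, had 86.8 and 87, 96.2 and 118, 69.6 and 71.9, and 98.9 and 75.2 on rc_AA891037_at. Its second probe set had 5.51 and 17.4, 4.83 and 8.76, 12.3 and 20.2, and 13.9 and 22.1, signals that were not shown to lie above background, and the probe sets differed in sign in 4 of the 5 comparisons. The pseudogene Rps2-ps1 was as low, at 9.22 and 11.2, 8.87 and 5.25, 4.81 and 10, and 5.91 and 15.1 on L81137exon_s_at, and at 2.5 to 3.35 over the 8 arrays on the untested probe set.

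Between the sets some members were lower in C6SPGFP cells. In slow cells 3 of 62 (4.84%) were called, all lower, from Rpl36, Rpl35 and Rps27l, against 6.34% of all tested probe sets in either direction and 3.05% lower. In fast cells 8 of 62 (12.9%) were called, all lower, from Rps15, Rpl35, Rpl13a, Rpsa and Rps10, against 15.6% in either direction and 7.3% lower. The called shares thus lay below the background in either direction and above the background of lower calls. The median change was -0.149 in slow and -0.157 in fast cells, against 0.007 and -0.034 over all tested probe sets, and 45 of 62 changes (72.6%) were negative in each comparison. By brightness, a split chosen after the data had been seen, for the 51 with a mean signal of at least 500 the medians were -0.162 and -0.21, with 40 and 41 changes negative, and for the 11 dimmer ones they were 0.109 and 0.232, with 5 and 4 negative. The size was small: no member in slow cells and 1 in fast cells changed by more than 2-fold. The fast comparison uses the C6fast arrays, which stood apart, and contrasts no array of the slow comparison. Both comparisons still share the normalisation and the spread estimated over all arrays, so they are not independent.

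The counts moved with single arrays, and the share of all tested probe sets called moved as well. Leaving out an array of a compared group leaves 1 array there. The members' share called lower did not lie above that of all tested probe sets in every fit. In fast cells it lay below that share without C6fast replicate 1. In slow cells it lay below that share in the fits with 0 or 1 member called. In slow cells the count was 0 without C6slow replicate 1, C6SPGFPslow replicate 1 or C6SPGFPslow replicate 2, 1 without C6SPGFPfast replicate 2, and 2 without any other single array or without both C6fast arrays. In fast cells it was 2 without C6fast replicate 1, 4 without C6fast replicate 2, 5 without C6SPGFPfast replicate 1, 2 without C6SPGFPfast replicate 2, and 7 to 9 without any other.

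Rpl35, which sits by the exit of the nascent chain on the large subunit, was called in both comparisons on M34331_at. Its signals were 1670 and 1567 in C6slow, 1914 and 1719 in C6fast, 1039 and 1194 in C6SPGFPslow, and 957 and 919 in C6SPGFPfast. All 4 C6SPGFP arrays lay below all 4 C6 arrays. The change was -0.95 in fast cells (SE 0.12, 1.93-fold lower, adjusted p = 0.00114) and -0.54 in slow cells (SE 0.12, 1.45-fold lower, adjusted p = 0.0341). The second probe set, M34331_g_at, gave 2100 and 2082, 2245 and 1991, 1841 and 1894, and 1702 and 1501 in the same order, with the same split of the arrays. It changed by -0.4 in fast cells (SE 0.11, adjusted p = 0.0383) and by -0.16 in slow cells (adjusted p = 0.445), so the probe sets agreed in direction and not in size.

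Rpl36, a small protein of the large subunit, was lower in slow C6SPGFP cells, by 0.57 on the log2 scale. It gave 2223 and 2052 in C6slow, 2018 and 1866 in C6fast, 1405 and 1466 in C6SPGFPslow, and 1572 and 1742 in C6SPGFPfast. Every C6SPGFP array of Rpl36 lay below every C6 array. The slow groups were apart by far more than their replicates (-0.57, SE 0.11, 1.49-fold lower, adjusted p = 0.0167), and the fast groups were separate and closer (-0.23, adjusted p = 0.196). Rps27l, a paralog of the small-subunit gene Rps27 and known as a p53 target, gave 1921 and 1749, 1797 and 1770, 1286 and 1357, and 1310 and 1451. All its C6SPGFP arrays lay below all its C6 arrays, with a change of -0.47 in slow cells (SE 0.11, 1.39-fold lower, adjusted p = 0.0382) and of -0.37 in fast cells (SE 0.11, adjusted p = 0.0502), which just missed the threshold. How much RNA of Rps27 itself this probe set picks up was not tested.

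Rps15, a small-subunit protein at the head of the subunit, had the widest change between the fast groups, and its 3 probe sets disagreed. On rc_AA892895_r_at it gave 1310 and 1269 in C6slow, 1749 and 1828 in C6fast, 949 and 1310 in C6SPGFPslow, and 910 and 814 in C6SPGFPfast. The C6fast arrays were the highest and the C6SPGFPfast arrays the lowest, a change of -1.05 (SE 0.16, 2.07-fold lower, adjusted p = 0.00254). On this probe set speed went with a higher signal in C6 (0.47, adjusted p = 0.131) and a lower one in C6SPGFP (-0.37, adjusted p = 0.495), and the difference of the changes, -0.84 (SE 0.22), was not called (adjusted p = 0.09). It was called only without C6SPGFPslow replicate 1, the lower of that group's arrays (-1.08, adjusted p = 0.036).

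The other Rps15 probe sets did not show this pattern. E01534cds_s_at gave 2692 and 2507, 2841 and 3061, 2475 and 2640, and 2475 and 2712, with a change of -0.19 between the fast groups (SE 0.1, adjusted p = 0.247). On rc_AA892895_i_at, made from the same sequence entry as the called one, signals were 713 and 243, 479 and 216, 160 and 373, and 261 and 424. Replicates there lay up to 713 against 243 apart, and the change between the fast groups was 0.04 (SE 0.58, 95% interval -1.29 to 1.37). The called change of Rps15 therefore rests on a single probe set of 3.

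Rpsa and Rps10, both of the small subunit, were lower in C6SPGFPfast than in C6fast cells. Rpsa, known also as the precursor of a laminin receptor, gave 2169 and 2383 in C6slow, 2723 and 2544 in C6fast, 2046 and 2315 in C6SPGFPslow, and 1917 and 1822 in C6SPGFPfast on D25224_at. D25224_g_at gave 2286 and 2572, 2964 and 2761, 2240 and 2428, and 2209 and 1972 in the same order. On both, the C6fast arrays were the highest and the slow groups overlapped. The changes in fast cells were -0.49 (SE 0.1, 1.41-fold lower, adjusted p = 0.0148) and -0.45 (SE 0.11, adjusted p = 0.0231), and in slow cells -0.06 on each probe set. Rps10, near the mRNA entry of the small subunit, gave 1854 and 1733, 2223 and 2228, 1582 and 1590, and 1627 and 1699. Its replicates were close, C6fast was the highest group, and the change in fast cells was -0.42 (SE 0.09, 1.34-fold lower, adjusted p = 0.0189) against -0.18 in slow cells (adjusted p = 0.34). Every C6SPGFP array of Rps10 lay below every C6 array.

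Rpl13a, a large-subunit protein known also for a role in silencing inflammatory mRNAs, was called on both of its probe sets in fast cells. On rc_AA891713_at it gave 1779 and 1353 in C6slow, 1881 and 1854 in C6fast, 1121 and 1514 in C6SPGFPslow, and 1217 and 1197 in C6SPGFPfast. On rc_AI012805_at it gave 2027 and 1822, 2368 and 2133, 1770 and 2155, and 1595 and 1719. The fast groups were separate on both, the slow groups overlapped on both, and the changes in fast cells were -0.63 (SE 0.17, adjusted p = 0.0408) and -0.44 (SE 0.13, adjusted p = 0.0486).

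**Figure D2:**
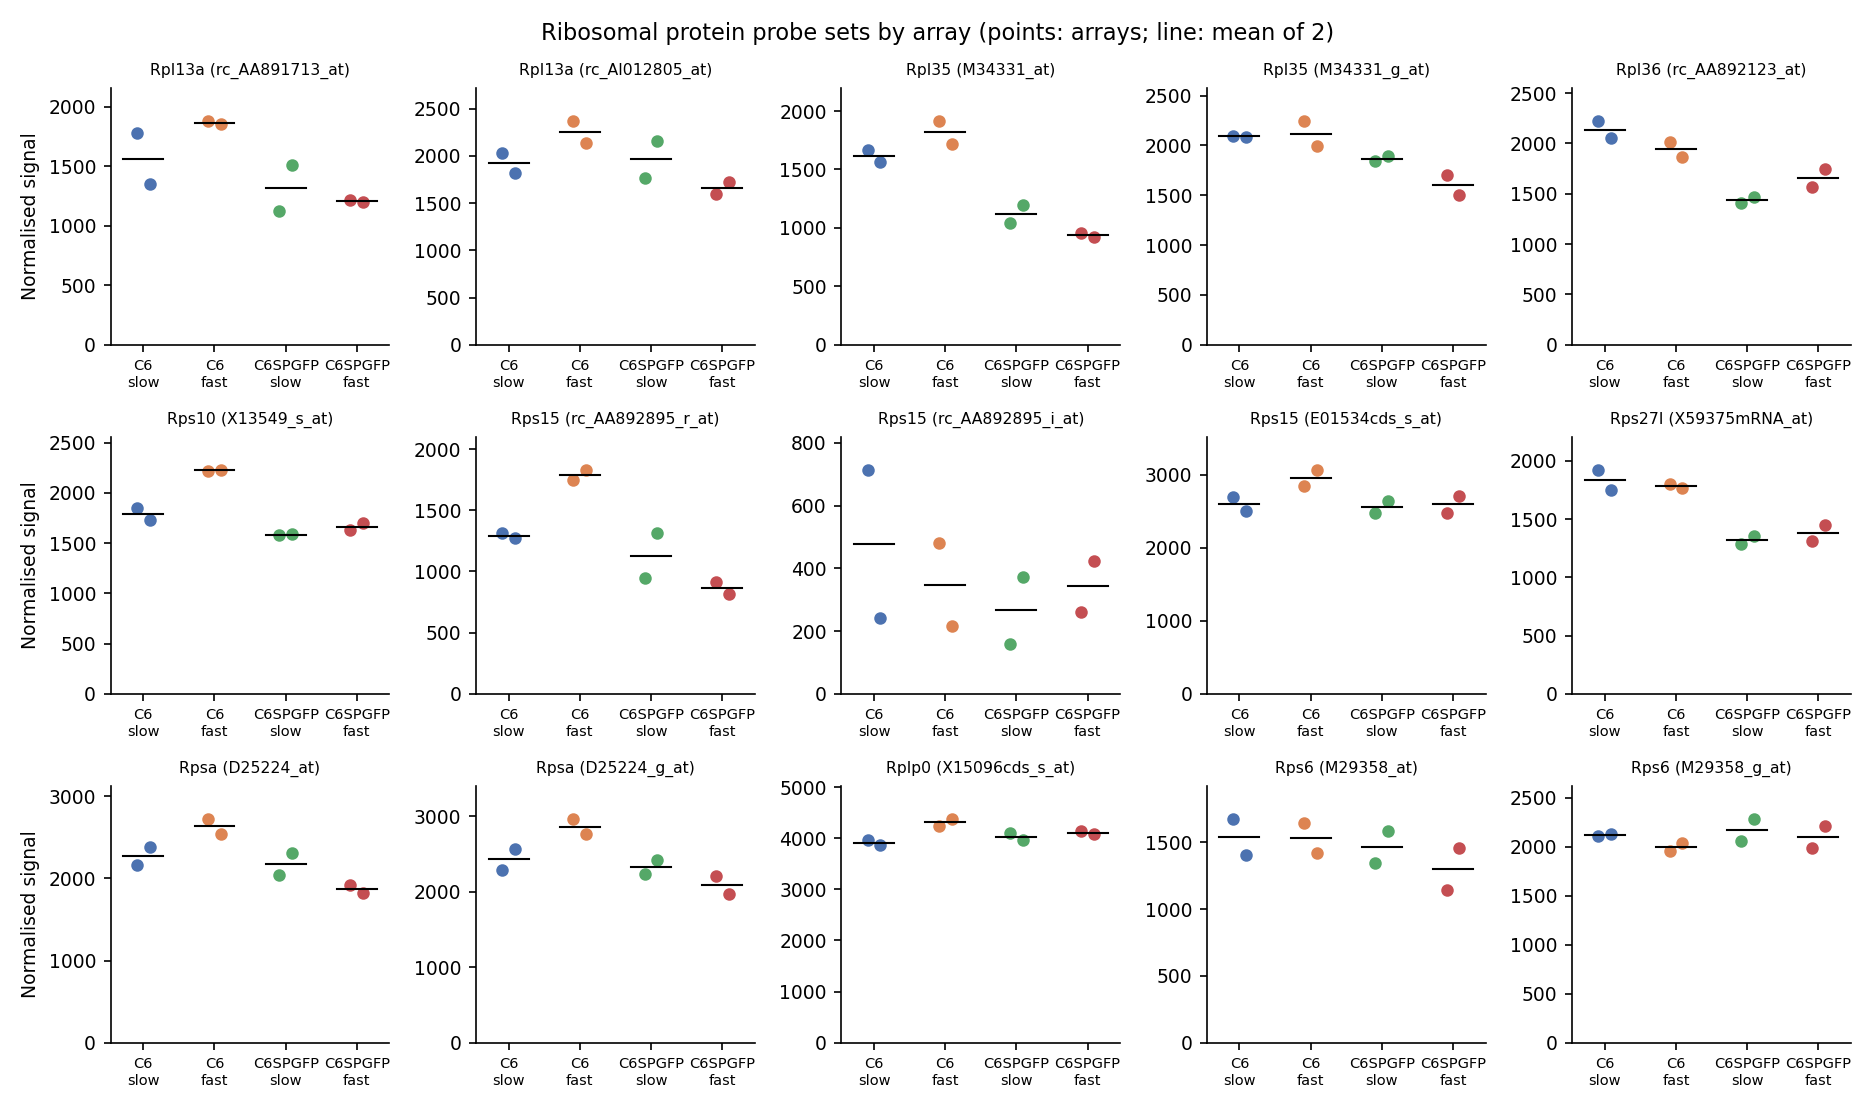
Normalised signal on each of the 8 arrays (points) with the mean of each group of 2 (line) for the called probe sets, the other Rps15 probe sets, Rplp0 and Rps6, each on its own axis from 0. Rpl35, Rpl36, Rps10 and Rps27l are lower on all 4 C6SPGFP arrays than on all 4 C6 arrays, while Rplp0 stays between 3857 and 4374.

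Probe sets of both subunits were called, all lower. In fast cells 4 of 42 large-subunit probe sets (9.52%) and 4 of 20 small-subunit ones (20%) were called lower, against 7.3% of all tested probe sets, with medians of -0.175 and -0.152. In slow cells 2 of 42 (4.76%) and 1 of 20 (5%) were called lower, against 3.05%, with medians of -0.179 and -0.077. The large-subunit shares lay near the background, as did the small-subunit share in slow cells. The small-subunit calls in fast cells were both probe sets of Rpsa, that of Rps10 and 1 of the 3 of Rps15. Genes with the pyrimidine run at their annotated start, of which Rpl35 and Rps15 are printed above, had a median of -0.164 in slow and -0.158 in fast cells over 14 probe sets. Those without it at that exact position, among them Rpl13a and Rps10 with pyrimidine runs printed near the start, had -0.176 and -0.214 over 39. Called lower between the fast groups were 3 of the 14 with the run and 5 of the 39 without it, and between the slow groups 1 and 2, so medians and counts gave no common order. Of 16 genes with several tested probe sets, all probe sets had the same sign in 8 between the slow groups and in 9 between the fast groups, with a median span between probe sets of 0.17 and 0.24, about the size of the median changes.

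The second set, the probe sets with several symbols that include a ribosomal protein or pseudogene symbol, was no part of the counts above, although it shares the arrays. Of its 39 tested probe sets, 35 had a negative change between the slow groups, with a median of -0.158. None was called there by limma, with 9 at an unadjusted p below 0.05, against 1401 of all 6684 tested. Between the fast groups 11 (28.2%) were called, all lower, against 7.3% of all tested probe sets, and the median was -0.254. With speed 0 were called in C6, in C6SPGFP and on the difference, with unadjusted p below 0.05 for 2, 1 and 3.

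How far ribosomal protein signals were lower in C6SPGFP cells depended on how the arrays were put on a common scale. Under linear scaling of each array to the same trimmed mean, 11 members were called lower in slow cells, against 2.97% of all tested probe sets, and 29 in fast cells, against 7.04%. Cyclic loess, chosen after the data had been seen, gave 3 and 10, against 2.94% and 6.61%. Relative to the median of all tested probe sets, members lay at -0.16 in slow and -0.12 in fast cells under quantile normalisation, at -0.17 and -0.22 under loess, and at -0.42 and -0.55 under linear scaling. On the deposited signals with no scaling they lay at -0.43 and -0.45 relative to that median, while the members' own median in fast cells was positive, 0.65, because C6SPGFPfast replicate 1 was deposited on a scale of 500.5. The direction relative to all probe sets was thus the same under all 4 scalings, and the size was not. Linear scaling and the deposited signals differ only by a factor for each array. The comparison with the median of all tested largely takes that factor out, so these scalings are not separate evidence.

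**Figure D3:**
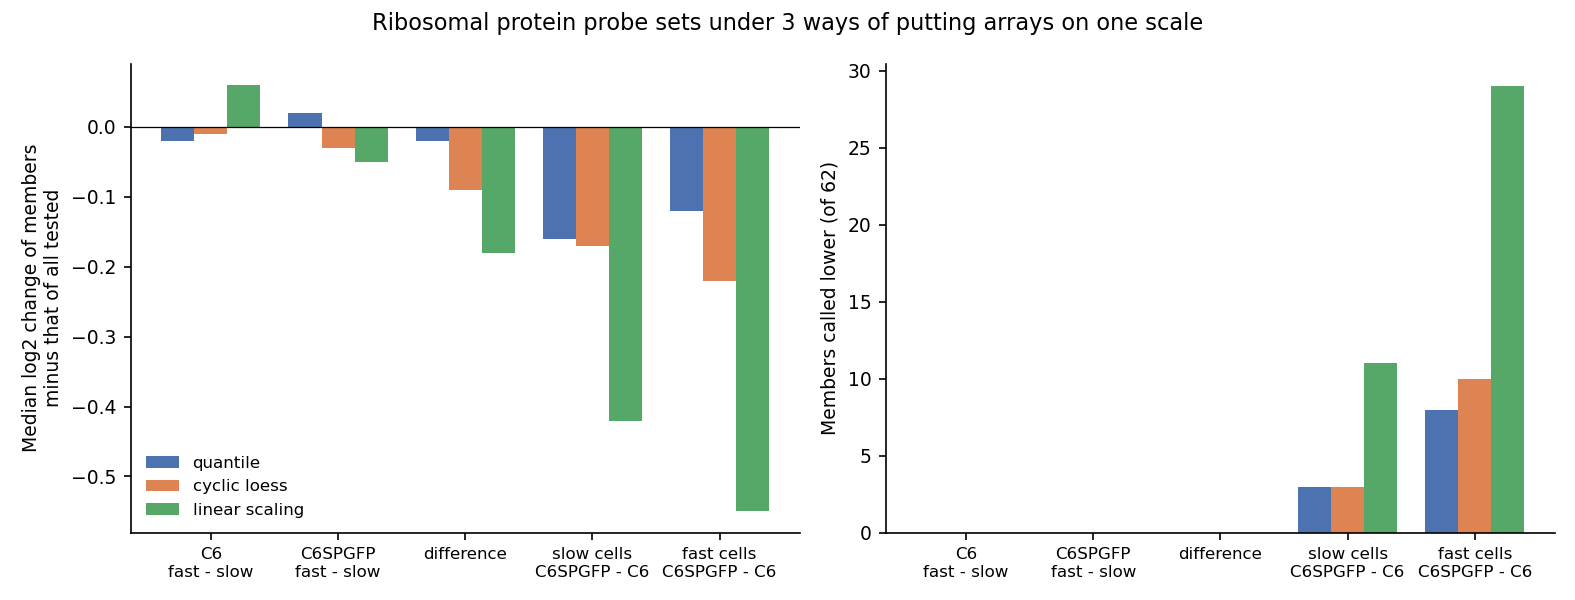
Left, the median log2 change of the 62 ribosomal protein probe sets minus that of all tested probe sets in the 5 comparisons, and right, the number called lower, under quantile normalisation, cyclic loess and linear scaling. The bars between the sets are below 0 under each, at -0.16, -0.17 and -0.42 in slow cells and -0.12, -0.22 and -0.55 in fast cells, and no member is called with speed.

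The share of all deposited signal that fell on the members needs no scaling. It was 8.01% and 7.43% on the C6slow arrays, 8.05% and 7.97% in C6fast, 5.99% and 6.55% in C6SPGFPslow, and 5.75% and 6.14% in C6SPGFPfast. The group means were 7.72% ± 0.41, 8.01% ± 0.0566, 6.27% ± 0.396 and 5.95% ± 0.276 (SD, n = 2). All C6SPGFP arrays lay below all C6 arrays, and the ranges of slow and fast cells overlapped within each set. The second set moved alike, from 5.61% to 6.19% on the C6 arrays and from 4.21% to 4.82% on the C6SPGFP arrays. So did the 100 brightest probe sets of each array, whichever genes they were, with 19.9% to 21.9% of the signal on C6 arrays and 16.1% to 17.9% on C6SPGFP arrays; of these 100, 20 to 24 were members on the C6 arrays and 16 to 18 on the C6SPGFP arrays. The part of this lower share of bright signals in the members' lower values was not tested.

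**Figure D4:**
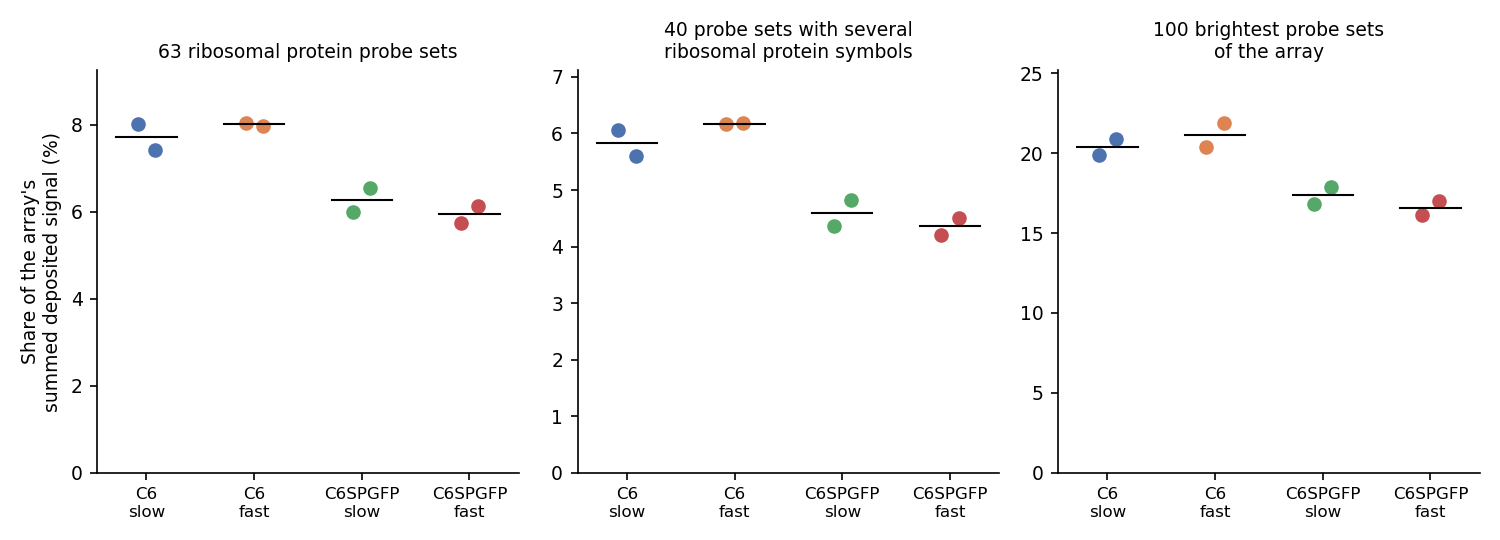
Percent of each array's summed deposited signal that fell on the 63 ribosomal protein probe sets, on the 40 probe sets with several symbols that include a ribosomal protein or pseudogene symbol, and on the 100 brightest probe sets of the array. Points are arrays and lines are means of 2. All 3 shares are lower on the C6SPGFP arrays, for the members 5.75% to 6.55% against 7.43% to 8.05%.

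Glial markers moved between the sets as well. Their summed normalised signal was 5060 and 4890 in C6slow, 2940 and 3160 in C6fast, 7120 and 7260 in C6SPGFPslow, and 6780 and 6860 in C6SPGFPfast. In fast cells 5 of the 5 measured were called higher in C6SPGFP, against 554 of all 6684 tested probe sets called higher (15.6% in either direction). In slow cells 2 of 5 were called higher, against 220 of all 6684 (6.34% in either direction). With speed in C6, 4 of the 5 were called lower in fast cells, against 3.96% of all called lower there. In C6SPGFP 1 of the 5 was called with speed, lower, against 0.329% of all called lower there. The difference of the changes was called for 4 of 5, against 3.82%. The part of the glial markers in the members' result was not tested.

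Genes that act with the ribosome were counted by lists, each gene by its brightest probe set. Of 13 tested genes for ribosome assembly and the nucleolus, none was called with speed in either set or on the difference, by limma, with an unadjusted p below 0.05 for 1, 1 and 0. Between the fast groups 3 of 13 were called, all lower, against 7.3% of all tested probe sets, with a list median of -0.528 against -0.157 for the ribosomal proteins and -0.034 for all tested. They were Mybbp1a, a nucleolar Myb-binding protein (-1.22, SE 0.2, adjusted p = 0.00412), Gnl3, the nucleolar GTPase nucleostemin (-1.25, SE 0.29, adjusted p = 0.0212), and Polr1b, a core subunit of RNA polymerase I (-0.87, SE 0.19, adjusted p = 0.0182). Mybbp1a gave 214 and 281 in C6slow, 314 and 244 in C6fast, 154 and 143 in C6SPGFPslow, and 114 and 114 in C6SPGFPfast, with every C6SPGFP array below every C6 array. A second, dim probe set of Polr1b changed by 0.35, those of Mybbp1a and Gnl3 by -0.86 and by -0.53 and -0.85. Between the slow groups Gnl3 alone was called, lower (-1.36, SE 0.29, adjusted p = 0.0303), against 3.05% of all tested probe sets, and the list median was -0.327. Over the alternatives the calls of Gnl3 were lost in 6 of 16 between the slow and 5 of 15 between the fast groups, that of Polr1b in 5 of 15, and that of Mybbp1a in 1 of 15, on deposited signals.

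Few translation factors passed the test. Of 21 tested, 0 were called with speed or on the difference by limma, each with 1 at an unadjusted p below 0.05. Eif4a2, a helicase of the cap-binding complex, was higher in C6SPGFPslow than in C6slow cells (0.65, SE 0.12, adjusted p = 0.018), and Eef1g, a subunit of elongation factor 1, was lower in C6SPGFPfast than in C6fast cells (-0.39, SE 0.1, adjusted p = 0.0308). These are 1 of 21 each, against 6.34% and 15.6% of all tested probe sets in either direction. The call of Eif4a2 was lost in 5 of 16 alternatives and that of Eef1g in 9 of 15. The list medians were -0.096 between the slow and -0.2 between the fast groups. Of 14 mitochondrial ribosomal proteins, which belong to another ribosome, 1 was called in the 5 comparisons: Mrpl45, lower between the fast groups (-0.97, SE 0.18, adjusted p = 0.00767), against 7.3% of all tested probe sets called lower there. Its call was lost in 3 of 15 alternatives. Their medians were -0.272 between the slow and -0.155 between the fast groups.

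Of 18 genes of the S6 kinase, mTOR and Myc list, 2 (against 6.66% of all tested probe sets) were called with speed in C6 and 0 in C6SPGFP, the latter by limma with 2 at an unadjusted p below 0.05. In C6 cells Max, the partner of Myc, was called higher in fast cells (1.94, SE 0.33, adjusted p = 0.00868), from 8.69 and 8.68 to 36.9 and 83.6. The C6slow signals are not shown to lie above background, and the size of the change depends on the settings, from 1.45 to 2.55 over 15 alternatives. Eif4ebp1, the translation repressor that mTOR phosphorylates, was called lower (-0.71, SE 0.17, adjusted p = 0.0403), from 1010 and 766 to 584 and 491. Its C6SPGFP arrays gave 536 and 505 in slow and 757 and 714 in fast cells, and the difference of the changes was called (1.2, SE 0.23, adjusted p = 0.0277). Between the slow groups Max (2.2, adjusted p = 0.00669) and Mxi1, a Max-binding repressor (0.99, SE 0.24, adjusted p = 0.0478), were higher in C6SPGFP and Eif4ebp1 was lower (-0.75, SE 0.17, adjusted p = 0.0343). These are 3 of 18, against 6.34% of all tested probe sets in either direction. Between the fast groups, where 15.6% of all were called, Eif2ak3, a kinase that restrains initiation under stress of the endoplasmic reticulum (1.08, SE 0.22, adjusted p = 0.0132), and Mycn (1.25, SE 0.29, adjusted p = 0.0224) were higher, Mycn at signals of only 0.762 to 20.7. Of these calls, that of Eif4ebp1 was lost in 11 of 15 alternatives in C6 (adjusted p from 0.0202 to 1) and in 8 of 16 between the slow groups, that of Mxi1 in 9 of 16, those of Eif2ak3 and Mycn in 3 of 15 and 3 of 13, and that of Max in 1 of 15 in C6 and 2 of 16 between the slow groups. The list medians ran from -0.105 to 0.077 over the 5 comparisons.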

How the data were processed

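RNA of 8 C6 samples was measured on arrays, and groups and replicate numbers were read from the sample titles. The authors deposited probe set signals on a linear intensity scale, per the deposited values, made with software and scaling not given in the sources used here. Detection calls are not used here. The ribosomal protein members and the gene lists were chosen with earlier results of these data known.

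Signals were quantile normalised, log2(signal + 8) was taken, and the 6684 probe sets with a mean of at least 8 were fitted with 4 group means in limma 3.58.1 (R 4.3.3; lmFit, eBayes with a trend, two-sided), with 4 residual and 4.49 prior degrees of freedom and Benjamini-Hochberg adjustment per comparison. The pseudocount shrinks changes of dim probe sets. The fit was tested on simulated data. The number of arrays, 2 a group, limits the precision.

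Of the probe sets, 7018 had a single symbol in the platform table, 308 several and 1473 none, and 6994 symbols were updated by Entrez identifier to GRCr8. Named with their values are called members, the 3 highest and 3 lowest changes with speed in each set, the 2 highest and 2 lowest signals, Rplp0, Rpsa, Rps6, Rpl22, Rpl3, Rpl3l, genes whose probe sets disagree, and called list members, at most 4 a list and comparison. Alternatives were other scalings, pseudocount 1, no filter, 1 probe set per gene, fewer groups, a replicate block, and each array left out. Replicate numbers were not taken to pair the arrays, and no block entered the main model.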

Additional observations from a re-analysis of the deposited data

Results flagged for a closer look

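Eif4ebp1 (U05014_at), a gene of the mTOR list and not a ribosomal protein, changed differently with speed in the 2 sets by limma's test of the difference itself: 1.2 on the log2 scale (SE 0.23, adjusted p = 0.0277), from -0.71 in C6 and 0.49 in C6SPGFP. Over 14 alternatives the difference ran from 1 to 2.4 and the adjusted p from 0.0164 to 0.703, with 7 of them missing the threshold, 6 of these the omission of a single array. Its other probe sets gave 1.07 (U05014_g_at) and 0.39 (rc_AI178828_i_at). No ribosomal protein probe set was called on this difference.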

How the results depend on the processing

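With speed, no member was called in C6 or in C6SPGFP under any alternative run, and on the difference 0 to 1 were called when single arrays were left out. Between the slow groups the count of 3 became 11 under linear scaling (17.7%, against 2.97% of all tested called lower) and 0 on deposited signals (against 0.015%). It was 1 with no filter (1.59%, against 1.92%), with only the groups compared (1.64%, against 2.32%), or with the replicate block (1.61%, against 2.93%). Between the fast groups the count of 8 became 29 under linear scaling (46.8%, against 7.04% of all tested called lower) and 0 on deposited signals (against 0.165%). It was 5 with no filter (7.94%, against 4.97%) and 6 with the replicate block (9.68%, against 6.9%). With 1 probe set per gene it was 4 of 43. Leaving out single arrays moved the counts as given above, along with the share of all tested probe sets called. The members' median was -0.36 (slow) and -0.47 (fast) under linear scaling, -0.4 and 0.65 on deposited signals, and -0.22 (fast) under loess; in C6SPGFP with speed it was -0.05 under linear scaling and 1.09 on deposited signals, and on the difference -0.16 and 1.02. Without single arrays the medians ran from -0.09 to 0.08 in C6, -0.07 to 0.03 in C6SPGFP, -0.1 to 0.01 on the difference, -0.19 to -0.07 (slow) and -0.19 to -0.12 (fast). On deposited signals, where C6SPGFPfast replicate 1 stands at 500.5, the fast-cell changes reversed for Rpl13a (0.31 and 0.34), Rpl35 (0.02 and 0.46), Rps10 (0.38), Rpsa (0.27 and 0.27), Eef1g (0.56), Mrpl45 (0.21) and Polr1b (0.39). The fast-cell calls of Rpl35 on M34331_at and of Rps15 were lost in 1 of 15 alternatives, those of Rpsa in 3 and 4, Rps10 in 5, Rpl35 on M34331_g_at in 8 and Rpl13a in 8 and 9; in slow cells Rpl36 lost its call in 4 of 16, Rpl35 in 10 and Rps27l in 12. Apart from the scale, the cause of these moves was not tested. Replicate numbers were not taken to pair the arrays, since the labels do not say that equal numbers mark a shared culture or day. Deviations of same-numbered arrays correlated at 0.2664 in C6 and 0.1039 in C6SPGFP, and from -0.1274 to 0.0283 between the sets. Pairing within a set is thus not excluded. With 2 arrays a group, and no detection calls used here, changes of the 11 dim members are poorly bounded.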

Other observations

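The dim ribosomal protein probe sets varied with the replicate number of the titles. Of the 11 tested members with a mean signal below 500, 5 (45.5%) were higher in replicate 2 than in replicate 1 in all 4 groups, and 0 were lower in all 4. The 5 were Rpl17, Rpl5, the dimmer Rpl3l probe set, and rc_AA849648_at and rc_AA849648_g_at of Rpl21. The Rpl21 probe sets come from the same sequence entry. That of Rpl3l, at a mean of 13.1, was not shown to lie above background. Of the 51 brighter members 1 (1.96%) was higher and 5 (9.8%) were lower in all 4, and of all 6684 tested probe sets 6.79% were higher and 7.68% lower. The split at 500 was chosen after the data had been seen, and what the replicate number stands for is not given in the labels.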
